A study of Mus musculus with 12 samples.

Results

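The cytosolic ribosomal protein genes encode the proteins of the 2 subunits of the ribosome that translates nuclear mRNAs. They were picked out by symbol: Rpl or Rps followed by a number, with at most a letter and a further number after it. Rpsa, Rplp0, Rplp1 and Rplp2 were added, and the symbols that carry -ps were left out. The family was chosen with earlier results of these data known. The rule found 85 genes among the 25239 rows of the count table. Of these, 43 encode large subunit proteins, 31 small subunit proteins and 3 the P proteins of the ribosomal stalk, and 8 are paralogs whose symbol has the letter l after the number. The study sequenced mRNA from brain and liver of male wild-type C57BL/6J mice aged 24 months. The control mice had no heat stress, and the heat stress mice were kept at 40 ± 0.5 °C and a relative humidity of 60 ± 5% for 3 hours a day over 15 days. Each of the 4 groups (brain control, brain heat stress, liver control, liver heat stress) had 3 libraries. The study's methods give 3 animals a group, but the labels do not say which brain and which liver came from the same animal, and the region of the brain that was cut is not given.

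Ribosomal proteins are made in near equal numbers, because each mature ribosome holds a single copy of almost every one. Their mRNAs are short, abundant and stable, and many start with a C followed by a run of pyrimidines, the 5′ terminal oligopyrimidine (TOP) motif, through which the mTORC1 kinase complex and the RNA-binding protein Larp1 set their translation. The level of such an mRNA can therefore differ from the rate at which its protein is made, and the libraries measured only the mRNA. A few vertebrate ribosomal protein genes have expressed paralogs with a narrower range, such as Rpl3l in striated muscle and Rpl10l and Rpl39l in testis, and most have many processed pseudogene copies.

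The start sites of 12 members are shown for the pyrimidine run that characterizes this gene family: Rps6 for its role as a kinase substrate, and 11 of the members with the highest or lowest values in a comparison below. Each line gives 30 bases of the RefSeq start window on GRCm38.p6, from 15 before the start to 15 from the start on, 5′ to 3′ on the strand of the gene. Capitals mark the longest run of C or T in the stretch from -20 to +30 where it has 8 or more bases, as far as it lies inside the printed window. 64 of the 85 members were matched by symbol, with 76 start sites. A run of 8 or more was found at 36 of the 76 member starts (47.4%) and at 6226 of all 32851 starts in the same table (19.0%). A C at the annotated start itself followed by 4 or more C or T was found at 14 member starts (18.4%) against 2.51% of all starts. The letters CTTCC or GGAAG, the same motif on the 2 strands, were found from 60 bases before to 30 after the start at 44 member starts (57.9%) against 34.3% of all. A match describes these letters only. In the windows below, Rps6, Rpl28, Rplp2, Rps18, Rpl22l1, Rps27 and Rps27l hold a run, while Rpl41, Rpl36a, Rplp0, Rps2 and Rpl7l1 do not.
Rps6 (chr4:86857353-86857382, minus strand): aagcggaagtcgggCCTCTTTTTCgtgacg
Rpl28 (chr7:4792950-4792979, plus strand): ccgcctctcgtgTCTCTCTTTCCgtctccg
Rplp2 (chr7:141447636-141447665, plus strand): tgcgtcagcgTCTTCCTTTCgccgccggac
Rps18 (chr17:33955651-33955680, minus strand): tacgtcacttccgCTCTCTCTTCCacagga
Rpl22l1 (chr3:28805493-28805522, plus strand): gtgcggcgcaagcccgTTCTCTTCCCacgg
Rps27 (chr3:90213634-90213663, minus strand): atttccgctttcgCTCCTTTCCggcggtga
Rps27l (chr9:66946071-66946100, plus strand): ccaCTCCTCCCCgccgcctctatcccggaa
Rpl41 (chr10:128549154-128549183, minus strand): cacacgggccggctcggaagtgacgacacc
Rpl36a (chrX:134585639-134585668, plus strand): gtgcacccaggcaccgcctataaacttccg
Rplp0 (chr5:115559452-115559481, plus strand): gtcttcgggtttcgaggaccgcctggttct
Rps2 (chr17:24720048-24720077, plus strand): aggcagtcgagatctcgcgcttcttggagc
Rpl7l1 (chr17:46782642-46782671, minus strand): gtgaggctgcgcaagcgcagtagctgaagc

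Before the results, 3 features of the libraries bear on them. Library totals ran from 10466198 to 15609040 counts. The 7 neuron markers summed to 5653 to 7675 counts-per-million (CPM) in the brain libraries and to at most 30.9 in liver. The 9 hepatocyte markers summed to at least 79986 CPM in the liver libraries and to between 231 and 2328 CPM in brain. The tissues therefore matched their labels, although the hepatocyte sum in brain was not negligible and differed between the brain groups, as given below. The column names of liver control 2, liver heat stress 1 and liver heat stress 3 carry the suffix 2nd, whose meaning is not given in the sources used here. Liver control 1 and liver heat stress 2 also held skeletal muscle transcripts: the 10 muscle markers, all detected in both groups, summed to 438 and 2458 CPM there and to between 1.40 and 7.81 in the other 4 liver libraries.

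Levels ranged widely over the family, and a few members had almost no counts. Per kilobase of annotated transcript, the highest levels in control brain were those of Rps29 at 1295 CPM per kilobase, a small subunit protein, and Rplp1 at 1283, a protein of the stalk. The lowest of those tested were Rpl30 at 1.78, Rpl32l at 4.20, Rps27 at 4.85 and Rpl34 at 7.04. In control liver Rplp1 was again high at 1392 CPM per kilobase and Rpl30 again lowest at 1.67. Rpl30, Rps27 and Rpl34 are core proteins of every ribosome, and how far reads can tell them from their copies was looked at. Of all 100-base windows of their transcripts, 98.4% (Rps27), 32.5% (Rpl30) and 31.0% (Rpl34) were also found in a transcript of another gene, and over 50% of the windows were shared for 31 of the 85 members. How reads that fit several genes were counted is not given, so the levels of members with shared windows are uncertain. Rpl10, with 91.6% of its windows shared, had 317 CPM in control brain, and Rps12, with 88.9%, had 152 CPM. The relation of sharing to level was not tested.

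4 members did not pass the filter on low counts in either tissue. Rpl26, a core large subunit protein, and Rpl10l had 0 counts in all 12 libraries, where 3 counts would be at most 2.87e-05% of a library. Of the windows of Rpl26, 36.8% were also found in a transcript of another gene. Its 0 counts are not read as absence of the mRNA, and their cause was not tested. Rpl39l had 10 counts in all, 9 of them in brain. Rpl3l, the muscle paralog of Rpl3, had 241 counts in all, of which liver heat stress 2 held 177 and liver control 1 held 28, the same 2 libraries that held the muscle transcripts. No other library had more than 8 counts of Rpl3l. The other 81 members were tested in both tissues. All p-values rest on 3 libraries a group and measure the spread between these libraries.

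The first comparison asked whether periodic heat stress changed ribosomal protein mRNA in the brain. Member genes took a larger share of all counts in each heat stress brain than in any control brain. The share was 1.53%, 2.46% and 1.99% in brain control 1, 2 and 3, and 3.01%, 3.96% and 2.76% in brain heat stress 1, 2 and 3. The group means were 1.99 ± 0.465% and 3.25 ± 0.632% (SD, n = 3 each), and the 2 groups did not overlap. No test was run on this sum. Within the groups the libraries differed widely, with control 1 lowest and heat stress 2 highest.

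**Figure D1:**
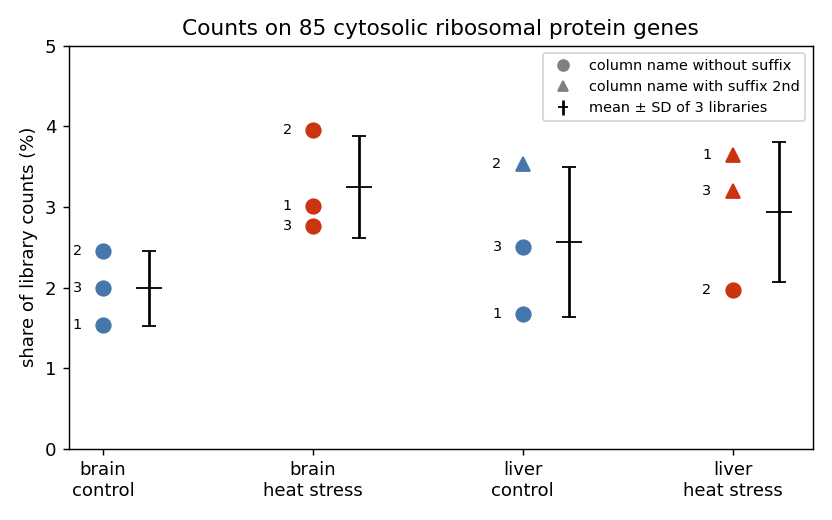
Share of each library's counts that fell on the 85 cytosolic ribosomal protein genes, in percent, for the 4 groups. Each point is a library with its replicate number, triangles are libraries whose column name has the suffix 2nd, and the black bar is the mean with SD. The brain groups are apart (1.53 to 2.46% against 2.76 to 3.96%), and the liver groups overlap, with all 3 triangles above the other liver libraries.

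The share was carried by nearly the whole family. All 81 tested members had a log2 fold change above 0 in brain, against 49.7% of all 14806 genes tested, with a median of 0.66 against -0.003 over all genes. At an unadjusted p under 0.05 from edgeR's quasi-likelihood test, 73 of the 81 were higher and 0 lower, where 10.0% of all genes were called higher and 10.0% lower. In 61 of the 81, every heat stress brain was above every control brain, against 12.9% of all genes, and none had all heat stress brains below, against 1774 of the 14806 genes tested (12%). No member passed an adjusted p of 0.05 with edgeR, and neither did any other gene (0% of genes called, lowest adjusted p = 0.170). DESeq2 on the same counts gave 60 of the 81 higher with an adjusted p under 0.05, where 2.20% of all genes were called higher, so whether members count as changed depends on the tool. The 20 members whose groups overlapped included Rplp0, Rpsa, Rps2, Rpl10 and 4 of the 5 tested paralogs.

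The same libraries were highest and lowest for most members. Of the 81 members, 77 had their highest brain level in heat stress 2, and 76 had their lowest in control 1. Leaving out heat stress 2 left 44 members higher at an unadjusted p under 0.05, where 4.85% of all genes were, with a median log2 fold change of 0.52. Leaving out any other brain library left between 59 and 78, where between 5.13% and 13.6% of all genes were, and the median stayed between 0.51 and 0.88 over all 6.

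**Figure D2:**
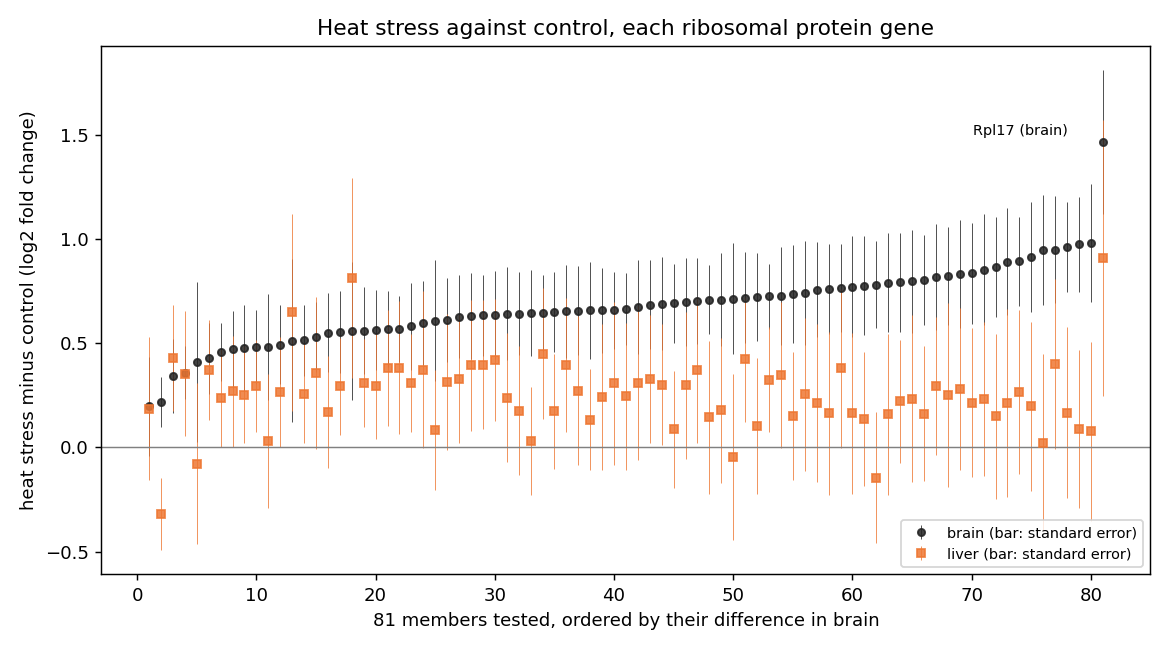
Log2 fold change of heat stress against control for the 81 tested members, ordered by the value in brain, in brain (circles) and in liver (squares), with standard errors from edgeR. Every brain value lies above 0, from 0.20 to 1.46, while the liver values run from -0.32 to 0.91.

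Of the large subunit proteins, Rpl17 had the largest difference. It had 27.0, 43.5 and 67.3 CPM in the 3 control brains and 118, 175 and 87.7 CPM in the 3 heat stress brains, with no overlap, a log2 fold change of 1.46 (standard error 0.35, edgeR adjusted p = 0.170). Since 77.1% of its transcript windows are shared with other genes, mostly pseudogenes, its count is uncertain. The same holds below for Rps12 (88.9% shared), Rpl36a (83.6%), Rps6 (83.6%), Rps27a (69.1%), Rpl11 (59.7%), Rpl13a (55.2%) and Rpl31 (52.5%). It also holds for Rpl10 (91.6%), Rpl3 (79.4%), Rps2 (64.7%), Rps18 (57.3%) and Rpl11 in the tissue comparison. Rpl41, a very short basic peptide that bridges the 2 subunits, lies on chromosome 10 from 128548114 to 128549305 of mm10. It had 173, 278 and 181 CPM in control and 415, 492 and 326 CPM after heat stress, again without overlap (log2 fold change 0.96, standard error 0.22). Only 13.0% of its windows are shared. Rpl36a went from 123 ± 33.0 to 241 ± 62.2 CPM (SD, n = 3), a log2 fold change of 0.97, and Rpl31 from 385 ± 119 to 701 ± 160 CPM, a log2 fold change of 0.87. The groups of both were apart.

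Rpl5 and Rpl11, which bind the 5S rRNA and, outside the ribosome, the p53 regulator Mdm2, had log2 fold changes of 0.64 and 0.83. Rpl5 had 261, 413 and 324 CPM in control and 480, 631 and 446 CPM after heat stress. Rpl11 had 176, 357 and 252 CPM in control and 453, 550 and 397 CPM after heat stress. For both, the highest control brain was below the lowest heat stress brain. Rpl13a, known for a role in translational silencing of inflammatory mRNAs, had a log2 fold change of 0.77 and Rpl22 of 0.71, both without overlap. Rpl28 was among the lowest with 0.36, yet its groups were apart, at 132, 152 and 123 CPM against 167, 194 and 161 CPM. Rpl30 was measured at a low level, between 0.831 and 1.79 CPM in all 6 brains, and its groups overlapped. Its log2 fold change of 0.41 was 0.16 without heat stress 3, 0.65 without heat stress 1 and 0.01 with the length and GC correction described below.

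Of the small subunit proteins, all 31 were above 0, from 0.53 to 0.95, against 49.7% of all genes. At an unadjusted p under 0.05, 30 of them were higher, where 10.0% of all genes were. Rps12 was the highest with 0.95, at 103, 204 and 149 CPM in control and 266, 380 and 233 CPM after heat stress. Rps27a, which is made as a fusion with ubiquitin, had 226, 355 and 273 CPM in control and 559, 628 and 397 CPM after heat stress, a log2 fold change of 0.89. Rps6, the substrate of the S6 kinases, had 214, 358 and 300 CPM against 456, 509 and 367 CPM (log2 fold change 0.61). Rps3, which also acts in DNA repair, had a log2 fold change of 0.69, and none of its transcript windows is shared with another gene. In these 4 genes every heat stress brain was above every control brain. Rpsa, the laminin receptor precursor, had 432, 768 and 556 CPM against 887, 1084 and 765 CPM, and control 2 was just above heat stress 3 (log2 fold change 0.64).

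The 3 stalk proteins, which recruit translational GTPases to the ribosome, did not move by the same amount. Rplp1 had 452, 876 and 594 CPM in control and 946, 1428 and 1010 CPM after heat stress, and Rplp2 135, 206 and 147 against 237, 301 and 225 CPM. Both were apart, with log2 fold changes of 0.82 and 0.65. Rplp0, which anchors the other P proteins, had 211, 288 and 218 CPM in control and 269, 372 and 269 CPM after heat stress. Here control 2 was above 2 of the heat stress brains, and the log2 fold change was 0.34 (standard error 0.18, edgeR adjusted p = 0.304), or 0.17 without heat stress 2. The difference between the stalk proteins was not tested.

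Of the paralogs, Rpl22l1 was the highest with a log2 fold change of 0.98, at 74.4, 160 and 104 CPM in control and 211, 290 and 165 CPM after heat stress. Its parent gene Rpl22 stood at 0.71. Rps27l, a p53 target, had 11.7, 18.8 and 16.4 CPM in control and 22.3, 36.5 and 18.0 CPM after heat stress, with control 2 above heat stress 3 (log2 fold change 0.71, or 0.37 without heat stress 2). Rpl7l1 with 0.22, Rpl32l with 0.51 and Rps4l with 0.20 had overlapping groups. Rpl32l ran from 0.19 without control 1 to 0.78 without control 2, and Rps4l from 0.0087 without control 3 to 0.54 without control 2. The last 2 are annotated as processed pseudogenes, and Rpl32l was measured at no more than 3.13 CPM in brain.

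The members share a property that the rule did not use: their transcripts are short. The median annotated length was 751 nt among the members and 2859 nt among all genes tested in brain, and 77 of the 85 members were at most 1500 nt long. In brain the log2 fold change of the other genes also fell with length, from a median of 0.42 over 152 genes of up to 500 nt, through 0.26 over 528 genes of 750 to 1000 nt, to -0.19 over 2550 genes above 5000 nt. The members were above the other genes of their own length in every length class, with medians of 0.73 up to 500 nt and 0.65 from 750 to 1000 nt. A fit that removed the trend of each library with length and GC content left all 81 members above 0, with a median of 0.42, and 58 higher at an unadjusted p under 0.05, where it called 5.65% of all genes higher. Among the genes described above, the value fell to 1.09 for Rpl17, 0.67 for Rpl41, 0.54 for Rpl36a, 0.57 for Rps12 and 0.46 for Rpl22l1. With this correction the 3 stalk proteins ran from 0.22 to 0.54, with a median of 0.32. The 5 tested paralogs ran from 0.03 to 0.46, with a median of 0.15. Rps27l had 0.23 and Rpl28 0.17 in that fit, and neither was past an unadjusted p of 0.05 there. The order of the libraries was also shared. In control 1 the median deviation from the mean over the 6 brains, on the log2 CPM scale, was -0.70 for the members and -0.35 for other genes of up to 750 nt, and in heat stress 2 it was 0.65 and 0.36. What part RNA quality or library preparation had in this was not tested.

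**Figure D3:**
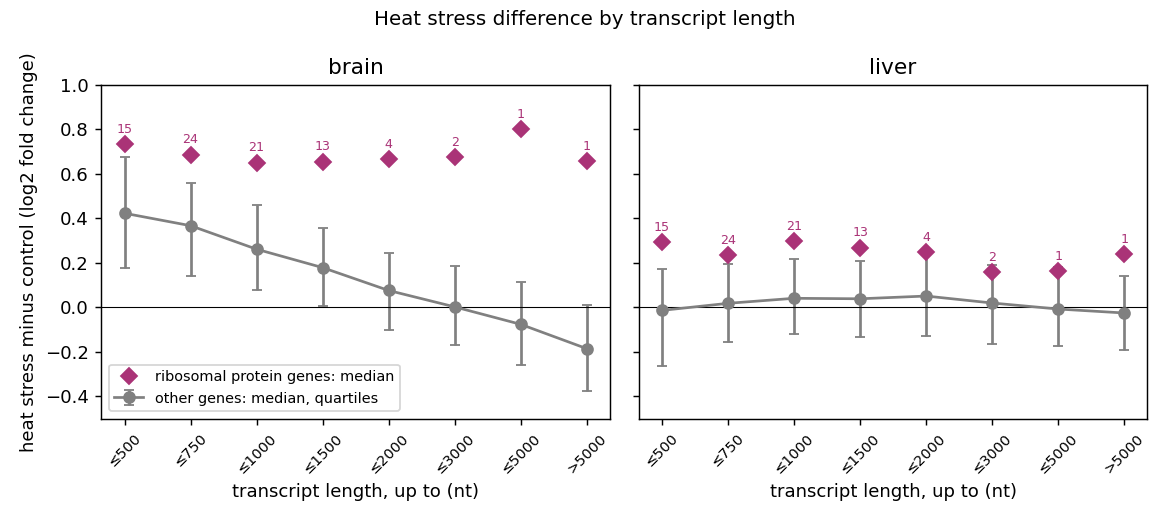
Median log2 fold change of heat stress against control by annotated transcript length in nt, in brain (left) and liver (right). Grey points with bars are the median and quartiles of other genes, diamonds are the median of members, with their number above. In brain the grey line falls from 0.42 to -0.19 and the diamonds lie above it throughout, and in liver the grey line stays between -0.03 and 0.05.

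**Figure D4:**
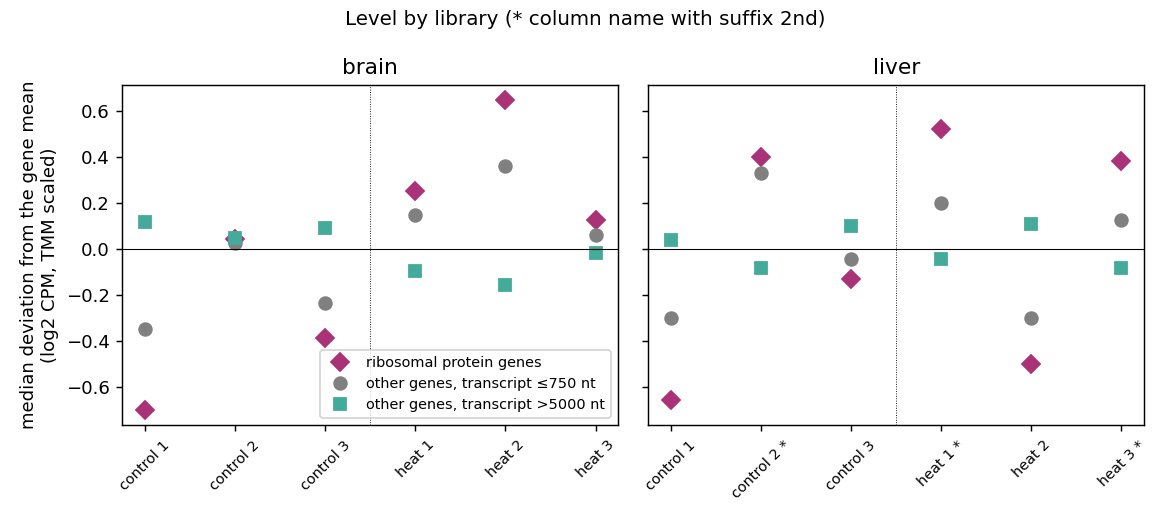
Median deviation of each library from the gene mean over the 6 libraries of its tissue, on the log2 CPM scale, for members (diamonds), other genes of up to 750 nt (circles) and other genes above 5000 nt (squares). Asterisks mark column names with the suffix 2nd. Members and short genes rise and fall together from library to library, with members spanning the widest range, from -0.70 to 0.65 in brain and from -0.66 to 0.52 in liver.

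Markers of other cells also moved with the brain groups. The 9 choroid plexus markers, all detected, summed to 1261 to 2511 CPM in control and 264 to 1140 CPM after heat stress, without overlap. The 9 hepatocyte markers summed to 1166 to 2328 CPM in control brain and 231 to 1075 CPM in heat stress brain, again without overlap. These sums lay close to those of the choroid plexus markers, which summed to between 6074 and 10773 CPM in liver. The choroid plexus sum is therefore not specific to that tissue, and it does not show that its 9 markers moved together. The 9 lymphocyte markers in the table summed to 4.53 to 6.11 CPM in control and 8.51 to 19.6 CPM after heat stress, without overlap. The 10 striatal markers summed to 524 to 933 CPM in control and 899 to 1990 CPM after heat stress. Their part in the difference of the ribosomal protein genes was not tested, and in tissue RNA fewer cells of a type and less RNA per cell cannot be told apart.

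Genes that work with the ribosomal proteins were read from lists. Fau and Rack1, ribosomal proteins that the symbol rule misses, were higher in brain at an unadjusted p under 0.05, with log2 fold changes of 0.69 and 0.41. Of 21 other genes known to carry TOP motifs, most of them translation factors, 14 were higher and 0 lower in brain by the same measure (10.0% of all genes in either direction), with a median of 0.36. Eif3e, a subunit of an initiation factor, stood highest at 0.80 and the snoRNA host gene Gas5 next at 0.75, while the elongation factor gene Eef2 had 0.06 and Hnrnpa1 -0.08. Of 20 genes of the mTORC1 pathway and its TOP regulators, 0 were higher and 4 lower, with a median of -0.06. Rptor, the subunit of mTORC1 that binds its substrates, had 86.3, 73.5 and 70.3 CPM in control and 59.6, 48.0 and 53.4 CPM after heat stress (log2 fold change -0.52), and the kinase gene Mtor 115, 92.0 and 91.1 against 67.3, 67.6 and 76.2 CPM (log2 fold change -0.50). Both were apart between the groups, as were the other regulators called lower, Tsc2 (log2 fold change -0.46) and Eif4g1 (-0.40). The cap-binding protein gene Eif4e and the GTPase gene Rheb were the highest of this list, with 0.26 and 0.21. Of 38 ribosome assembly genes, 3 were higher and 5 lower, with a median of 0.05. Nip7 with 0.42 and Rpf2 with 0.45 stood highest, and Heatr1 with -0.51 and Tcof1 with -0.63, both of ribosomal RNA transcription and processing, lowest. The 78 mitochondrial ribosomal protein genes had a median of 0.27, with 29 higher and 0 lower. The shares of the assembly and regulator genes can be read against the 10.0% of all genes called in either direction. With the length and GC correction, which called 5.65% of all genes higher and 6.38% lower, 8 of the TOP genes were higher with a median of 0.27, 2 of the regulators were lower with a median of -0.05, 3 of the assembly genes were higher and 4 lower with a median of -0.02, and 10 of the mitochondrial ribosomal protein genes were higher with a median of 0.15. With edgeR no gene of these lists passed an adjusted p of 0.05 in brain. DESeq2 called 8 of the TOP genes and 4 of the mitochondrial ribosomal protein genes higher at that threshold. It called 3 of the regulators and 2 of the assembly genes lower. Of all 14806 genes, DESeq2 called 326 higher and 290 lower.

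The same comparison was made in liver. The share of counts on the members was 1.67%, 3.53% and 2.51% in liver control 1, 2 and 3, and 3.65%, 1.97% and 3.20% in liver heat stress 1, 2 and 3. The means were 2.57 ± 0.932% and 2.94 ± 0.869% (SD, n = 3 each), and the groups overlapped. The median log2 fold change of the 81 members was 0.25 against 0.01 over all 12296 genes tested, and 77 were above 0, against 51.8% of all genes. At an unadjusted p under 0.05, 0 members were higher and 0 lower, where 2.97% of all genes were called higher and 2.87% lower. No gene passed an adjusted p of 0.05 with edgeR (0% of genes called), and with DESeq2 no member did. No member had all heat stress livers above all control livers, against 5.38% of all genes. A difference between the groups was not detectable over the spread of these libraries.

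Single members in liver gave the same picture. Rpl41 had 175, 507 and 280 CPM in control and 443, 190 and 447 CPM after heat stress, and Rps6 279, 558 and 419 against 666, 309 and 589 CPM. In both, control 2 was far above control 1, and heat stress 2 far below the other heat stress livers. The highest log2 fold changes were those of Rpl17 at 0.91 (standard error 0.66), Rps27 at 0.81, Rpl32l at 0.65, Rplp2 at 0.45 and Rplp0 at 0.43, and the first 3 of these have few or shared counts. With a library left out they ran from 0.30 (without heat stress 1) to 1.35 (without control 2) for Rpl17, and, in each case from the value without heat stress 1 or control 1 to that without heat stress 2, from 0.55 to 1.16 for Rps27, 0.24 to 0.96 for Rpl32l, 0.25 to 0.72 for Rplp2 and 0.27 to 0.65 for Rplp0. The lowest were those of Rpl7l1 at -0.32, Rpl21 at -0.15, Rpl30 at -0.08, Rps27l at -0.05 and Rpl39 at 0.02. Rpl7l1, a paralog of Rpl7, had 78.1, 92.8 and 74.1 CPM in control and 72.6, 60.4 and 63.1 CPM after heat stress. It was the only member whose groups were apart in liver, where 5.73% of all genes were apart and lower, with an edgeR adjusted p of 0.909.

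In liver the level of the family went with the suffix 2nd of the column name. The 3 libraries with the suffix had shares of 3.20 to 3.65% and the 3 without it 1.67 to 2.51%. In 74 of the 81 members, all 3 libraries with the suffix were above all 3 without it, against 8.50% of all genes tested. A fit with both suffix and heat stress as terms, which was chosen after the data were seen, gave a median log2 difference of 0.85 for the suffix, with 76 of the 81 members higher at an unadjusted p under 0.05, where 7.33% of all genes were called higher. In that fit the median for heat stress was -0.06, with 0 members higher and 1 lower, where 4.30% of all genes were higher and 4.20% lower. No gene passed an adjusted p of 0.05 for the suffix. Of the libraries with the suffix, 2 were heat stress and 1 was control, so the suffix is not balanced between the groups. No brain column carries it. The other genes of up to 750 nt had a median suffix difference of 0.50. The libraries without the suffix include both that held muscle transcripts. Without those 2 libraries, 12 members were higher after heat stress at an unadjusted p under 0.05, where 5.84% of all genes were, and the median was 0.28, and both heat stress libraries that remain carry the suffix. Leaving out liver heat stress 2 alone gave 13 members higher (2.70% of all genes) and a median of 0.50. Leaving out control 2 gave 3 members (1.82% of all genes) and 0.55, and leaving out control 1 gave 1 member (7.11% of all genes) and 0.02. The lymphocyte markers summed to 6.46 to 10.0 CPM in control liver and 11.2 to 20.6 CPM after heat stress, and their part in these values was not tested.

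The other lists in liver were read by the same measure, where 2.97% of all genes were higher and 2.87% lower. Of the TOP translation genes 1 of 21 was higher, which was Eef2 with a log2 fold change of 0.52, of the mTORC1 and TOP regulators 3 were higher and 1 lower, of the assembly genes 1 was lower, and of the mitochondrial ribosomal protein genes 0 were higher and 0 lower. Their medians were 0.21, 0.10, -0.01 and -0.02. With the length and GC correction, which called 4.09% of all genes higher and 5.31% lower, 3 TOP genes were higher, 3 regulators higher and 1 lower, 1 assembly gene higher and 1 lower, and 5 mitochondrial ribosomal protein genes lower. For the suffix, 11 of the TOP genes and 34 of the mitochondrial ribosomal protein genes were higher, where 7.33% of all genes were, with medians of 0.38 and 0.30.

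Whether heat stress acted differently on the members in the 2 tissues was tested as a difference of the 2 effects over all 12 libraries. The difference, liver minus brain, had a median of -0.41 over the 81 members and -0.04 over all 15824 genes tested, and 78 of the members were below 0. At an unadjusted p under 0.05, 2 members were lower, Rpl21 with -0.92 (standard error 0.40) and Rpl7l1 with -0.55 (standard error 0.20), where 5.91% of all genes were. No member passed an adjusted p of 0.05, the lowest being 0.516. Other genes of up to 750 nt had the same median difference, -0.41. Without liver control 1, 11 members were lower at an unadjusted p under 0.05, where 7.64% of all genes were. The median of the members was -0.22 with the length and GC correction and ran from -0.60 without brain control 2 to -0.17 without liver heat stress 2 or liver control 2. Between these libraries the brain and liver effects on the family are therefore not shown to differ. Rpl21, a large subunit protein, had 53.6, 92.6 and 68.0 CPM in control brain and 112, 151 and 105 CPM in heat stress brain, and 43.3, 108 and 82.2 CPM in control liver and 80.6, 50.2 and 79.7 CPM in heat stress liver. The brain groups were apart and the liver groups overlapped. Across the 81 members the fold changes in the 2 tissues had a Spearman rho of -0.25, given as a description over genes that share their libraries.

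The last comparison set control brain against control liver. With TMM scaling, which takes most genes as equal between libraries, 76 of the 81 members were lower in brain with an edgeR adjusted p under 0.05 and 0 were higher, where 36.1% of all genes were lower and 44.2% higher, but with library totals alone, a scaling chosen after the data were seen, 18 were lower and 1 higher, where 19.8% of all genes were lower and 65.0% higher. The median log2 difference of the members, brain minus liver, was -1.42 with TMM and -0.37 with totals, and that of all genes 0.24 and 1.33. By either scaling the median of the members lay below that of all genes. The other genes of up to 750 nt had medians of -0.83 with TMM and 0.24 with totals, which also lay below that of all genes. With the length and GC correction the median was -0.75 for the members and -0.29 for all genes, and 54 members were lower and 1 higher, where 46.9% of all genes were lower and 36.6% higher. As shares of the library the members took 1.99 ± 0.465% in control brain and 2.57 ± 0.932% in control liver (SD, n = 3 each), and 2.31% and 3.89% when the 50 most counted other genes of the tissue were left out of the total. Between the heat stress groups, 60 members were lower in brain with TMM, where 35.1% of all genes were, with a median of -1.01, and with totals 6 were lower and 8 higher, where 18.9% of all genes were lower and 66.2% higher, with a median of 0.12.

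**Figure D5:**
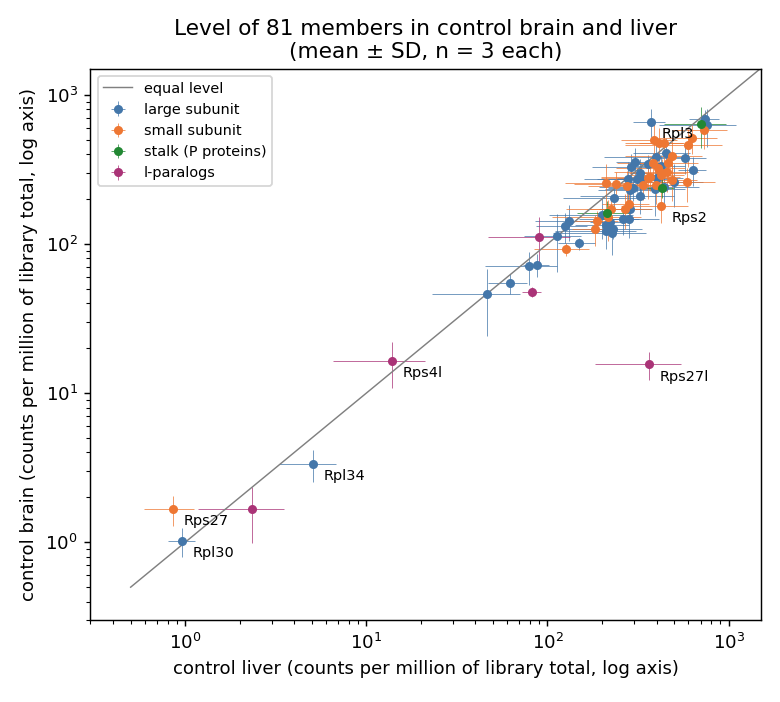
Level of the 81 tested members in control brain against control liver, in CPM of the library total (without TMM scaling) on log axes, as mean with SD (n = 3 each), coloured by subunit. Of the 81 points, 67 lie on the liver side of the line of equal level and 14 on the brain side. Rps27l lies far below it, at 15.6 in brain and 363 in liver, and Rpl3 above it, at 661 and 371.

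Against this common shift, single members stood apart. Rps27l, the p53-responsive paralog of Rps27 on chromosome 9 from 66946086 to 66949516, was at 15.6 ± 3.39 CPM of the library total in control brain and 363 ± 181 in control liver (SD, n = 3). Its log2 difference was -5.59 with TMM (standard error 0.45, edgeR adjusted p = 5.04e-08) and -4.54 with totals. The TMM value lay at -4.17 from that of the median member, and none of its windows is shared with another gene. Its parent gene Rps27 had 1.67 ± 0.379 and 0.856 ± 0.261 CPM of the library total (SD, n = 3), which the sharing of its windows makes uncertain, and a TMM difference of -0.18. After the paralog, Rps2 with -2.30, Rps18 with -2.25, Rpl10 with -2.09 and Rpl11 with -1.99 were lowest in brain. All 4 were also lower in brain with totals, with values of -1.24, -1.19, -1.01 and -0.94, with edgeR adjusted p-values of 0.00105, 0.00361, 0.00105 and 0.0192. At the other end, Rpl3 had 661 ± 143 CPM of the library total in control brain and 371 ± 76.4 in control liver. Its difference was -0.24 with TMM (edgeR adjusted p = 0.367) and 0.83 with totals (edgeR adjusted p = 0.00527), the only member higher in brain by the latter. Rps29, Rpl22l1 and Rps21 followed with TMM differences of -0.68, -0.73 and -0.77 and positive values with totals, of 0.38, 0.31 and 0.29, none past an adjusted p of 0.05 with totals. These TMM values depended on single libraries: from leaving out brain control 2 to leaving out liver control 2, Rpl3 ran from -0.50 to -0.11, Rps29 from -0.9998 to -0.44, Rpl22l1 from -1.15 to -0.42 and Rps21 from -1.16 to -0.46. With the length and GC correction Rpl22l1 turned to 0.84, higher in brain with an edgeR adjusted p of 0.00621. Rps21 had an edgeR adjusted p of 0.0624 with TMM, and of 0.0423 with the replicate number as a block. Across the 81 members the mean levels in the control tissues had a Spearman rho of 0.86.

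Members with and without a pyrimidine run at the start had similar medians in the 3 comparisons. The 34 tested members with a run of 8 or more had median log2 differences of 0.67 for heat stress in brain, 0.24 for heat stress in liver and -1.46 for control brain against control liver. The 26 without one had 0.65, 0.26 and -1.43. These are given as descriptions, without a test.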

How the data were processed

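Raw read counts per gene symbol were deposited by the authors for 12 libraries (oligo-dT enriched, stranded TruSeq, paired-end 100 cycles). The submitters' processing notes name FastQC 0.11.9, Trimmomatic 0.39, HISAT2 2.2.1, Subread 2.0.1 with featureCounts, and the mm10 build. The study's methods also describe an older TopHat2 and HTSeq route, and which of the 2 made the table is not stated. The annotation release, the strand setting and the handling of reads that fit several genes are not given in the sources used here, and no column was left unused. The deposited tables of the authors' own comparisons (fold changes and p-values from DESeq2) were not used.

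A result for 1 gene list is not reported here in full. The members and all gene lists were chosen with earlier results of these data known. Counts were tested with edgeR 4.0.16 (R 4.3.3) by the quasi-likelihood test, with TMM scaling, genes kept by filterByExpr (minimum count 10, minimum total 15), and Benjamini-Hochberg adjustment over all genes tested. Brain and liver were fitted apart, and the difference of effects and the tissue comparison over all 12 libraries as 4 groups. Deviations of same-numbered libraries from their group means correlated at 0.35, 0.34 and 0.11 between control brain and control liver, each library best with its own number, so the numbers were taken to pair these groups. This pairing comes from the data, not the labels, and the main tissue fit has no block. CPM are TMM scaled unless said to be per library total. Alternatives were DESeq2 1.42.0, other scalings and filters, a replicate block, a loess correction for length and GC, and each library left out. The count fits were also run on simulated counts, and the outcome is not given here. Transcript lengths and positions are from GENCODE release M21 (GRCm38, which is mm10), with the principal transcript per gene, which is long for Rps15a and Rps20. 24366 of 25239 symbols matched. Start windows are from RefSeq. Named genes are the 5 highest and 5 lowest members of each comparison, the paralogs, and a fixed list of members with known further roles. The 2 highest and 2 lowest of each other list in brain are also named, with the other regulators called lower there.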

Additional observations from a re-analysis of the deposited data

How the results depend on the processing

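In brain the median log2 fold change of the members kept its sign under all alternatives, and no scaling or filter changed the 73 members higher at an unadjusted p under 0.05 by more than 1.5 times. The length and GC correction lowered the brain count to 58. DESeq2 alone gave members past the adjusted threshold (60). With a library left out, the count ran from 44 to 78 and the median from 0.51 to 0.88. Rpl30 reached -0.011 with the replicate block and the length and GC correction together. Replicate numbers did not pair control with heat stress, since deviations of same-numbered libraries correlated from -0.21 to 0.23 between the brain groups and from -0.59 to -0.10 between the liver groups, nor the heat stress tissues, from -0.20 to 0.05. With the replicate block, 75 members were higher in brain at an unadjusted p under 0.05 with a median of 0.68, where 9.84% of all genes were higher, and in liver 0 with a median of 0.27, where 1.56% of all genes were. Between the control tissues the numbers were taken as pairs from correlations in these data alone, which the labels do not give. The fit with this block also paired the heat stress tissues by number. With the block, 75 members were lower in control brain at an edgeR adjusted p under 0.05, against 76 without it. Of all 15824 genes, 5626 were lower and 7010 higher with the block. Of the genes named there, the block changed the call of Rps21 only.

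In liver the count of members higher at an unadjusted p under 0.05 was 1 with the length and GC correction, 12 without both libraries with muscle transcripts, and 0 to 13 with a library left out, and the count lower was 1 with the length and GC correction, with all 12 libraries in a fit and with the suffix as a covariate. With a library left out, the liver median ran from 0.02 to 0.55. With the suffix as a covariate the median turned to -0.0597, and Rpl39 to -0.36, Rpl41 to -0.22, Rpl31 to -0.22, Rplp1 to -0.0225, Rps6 to -0.0045, Rpl5 to -0.0901, Rpl11 to -0.09, Rps27a to -0.12, Rpsa to -0.0597, Rpl13a to -0.22, Rpl22 to -0.19 and Rpl22l1 to -0.37. Rpl39 was -0.0359 with library totals only and -0.0201 without the muscle libraries, and Rps27l was 0.0087 with the replicate block, 0.0337 with the length and GC correction and 0.0431 with both. With a library left out, liver values ran from -0.0729 to 0.60 for Rpl11, -0.13 to 0.54 for Rpl13a, -0.45 to 0.16 for Rpl21, -0.16 to 0.49 for Rpl22, -0.26 to 0.42 for Rpl22l1, -0.20 to 0.0766 for Rpl30, -0.17 to 0.55 for Rpl31, -0.32 to 0.46 for Rpl39, -0.14 to 0.66 for Rpl41, -0.081 to 0.43 for Rpl5, -0.0503 to 0.63 for Rps27a, -0.38 to 0.35 for Rps27l and -0.10 to 0.70 for Rps4l. The suffix, muscle-library and library-total alternatives were chosen after seeing the data. The cause of these turns was not tested.

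For the difference of effects, the 2 members lower at an unadjusted p under 0.05 became 1 with DESeq2 size factors, without a filter, with the length and GC correction and without the paralogs, and 0 to 11 with a library left out, the most without liver control 1.

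For control brain against control liver, members higher in brain numbered 1 with the length and GC correction, alone or with the replicate block, which was Rpl22l1, and 1 with library totals only, which was Rpl3, with 18 lower. The median moved to -0.75, -0.71 and -0.37 under these 3. Under the same 3, Rps27 turned to 0.68, 0.73 and 0.92, Rpl3 to 0.33, 0.33 and 0.83, Rps29 to 0.0801, 0.0788 and 0.38, Rpl22l1 to 0.84, 0.84 and 0.31, and Rps21 to 0.0397, 0.0421 and 0.29. Rps27 ran from -0.35 to 0.21 with a library left out. Without the 50 most counted other genes in the denominator, the share of counts on members was 2.31% in brain control, 3.70% in brain heat stress, 3.89% in liver control and 4.55% in liver heat stress. The table holds no mitochondrial genome genes, so a share without them was not run. Rpl30, Rps27, Rpl34 and Rpl32l were each measured at a few CPM, which limits their values. The part of depth and of shared windows in these low levels was not tested.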
